A study of Mus musculus with 2 samples.

Results

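Oxidative phosphorylation subunits were described here in single-nucleus RNA sequencing of the mouse ventral tegmental area (VTA), a midbrain region that holds dopaminergic neurons of the reward system. The members were all genes whose symbol follows the naming of the respiratory complexes (Nduf followed by a, b, c, s or v and a number, Sdha to Sdhd, symbols that start with Uqcr, Cox4 to Cox8 followed by a, b or c, symbols that start with Atp5, and the protein-coding genes of the mitochondrial genome). The rule found 94 of the 32285 genes in the files. Of these, 81 are encoded in the nuclear genome and 13 in the mitochondrial genome. Subunits whose symbols follow another pattern, such as Cox4i1 and Ndufab1, fall outside the rule.

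The study compared 2 libraries of adult mice, 1 from wild-type animals (WT) and 1 from animals with chronic neuropathic pain (CCI, a constriction of the left sciatic nerve, with the right nerve exposed and left without ligature). The strain, the number of animals, the hemisphere taken, the time after surgery and whether the WT animals had any operation are not given in the sources used here. Both libraries were made with 10x Genomics 3' chemistry, which counts transcript ends by unique molecular identifiers (UMIs). The series calls the particles nuclei, while its protocol describes an enzymatic dissociation of tissue. They are called nuclei below. With 1 library per condition, every difference is a difference between these libraries, and no test between the conditions was possible.

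Oxidative phosphorylation passes electrons from NADH and succinate through complexes I to IV of the inner mitochondrial membrane to oxygen, and ATP synthase uses the resulting proton gradient to make ATP. Complexes I, III and IV and ATP synthase are assembled from subunits of both genomes, whereas complex II is built from nuclear-encoded subunits only. Nuclear-encoded subunits are transcribed in the nucleus, translated in the cytosol and imported. The mitochondrially encoded messages are transcribed and translated inside the organelle and do not pass through the nucleus. Neurons spend much of their ATP on ion pumping, and dopaminergic neurons of the midbrain are known for their sensitivity to inhibitors of complex I.

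The libraries differed in depth. After filtering, 12189 WT nuclei had a median of 975 UMIs and 12825 CCI nuclei a median of 3461. The 15982929 WT and 61401476 CCI UMIs in these nuclei were the basis of all levels, which are given as CPM, the UMIs of a gene in a class scaled to the same total of UMIs for every class and library. CPM was not divided by gene length, so levels are compared between libraries and classes and not between genes. Classes were named from marker genes, so that a dopaminergic neuron below is a dopaminergic-like nucleus by its markers. The summed markers were higher inside a class than outside it in both libraries, for GABAergic neurons at 335.3 against 66.51 CPM in WT and 407.9 against 57.41 in CCI. Neurons without a transmitter name are called other neurons. The 7 classes below are the 3 neuronal classes and the 4 classes of glia, and neurons as a whole are given beside them. A total of 54 barcode sequences occurred in both libraries.

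The libraries also separated within classes. For astrocytes, the cluster that held 89.1% of the WT class had 1132 nuclei from WT beside 101 from CCI, and the one that held 92.3% of the CCI class had 128 and 1374. Dopaminergic, GABAergic and other neurons and oligodendrocytes likewise had different leading clusters in the 2 libraries, while oligodendrocyte precursors (547 WT and 386 CCI nuclei) formed a single cluster and most microglia shared another. Intervals throughout are exact 95% intervals that cover counting error only.

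The mitochondrial messages are read from a compact genome in which several coding sequences share bases, which bears on how far their UMIs can be told apart. The last 60 bases of 3 genes are shown from GENCODE transcripts of build mm10, 5' to 3' on the plus strand, with the bases shared with the neighbouring gene in capitals. The end of mt-Atp8 holds 43 bases of mt-Atp6, that of mt-Nd4l holds 7 bases of mt-Nd4, and that of mt-Nd5 holds 14 bases whose complement ends mt-Nd6 on the other strand.
mt-Atp8, chrM:7910-7969: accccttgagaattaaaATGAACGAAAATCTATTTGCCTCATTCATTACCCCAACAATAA
mt-Nd4l, chrM:10114-10173: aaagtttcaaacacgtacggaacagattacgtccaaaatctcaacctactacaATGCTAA
mt-Nd5, chrM:13506-13565: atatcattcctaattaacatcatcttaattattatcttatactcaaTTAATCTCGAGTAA
Because a 3' assay counts the end of a message, UMIs of mt-Atp8 and mt-Atp6, or of mt-Nd4l and mt-Nd4, may belong to the same joined transcript. Whether the counting used the strand is not given in the sources used here, so mt-Nd5 and mt-Nd6 may also share reads.

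The nuclear-encoded and the mitochondrially encoded subunits moved apart between the libraries. Over all nuclei, the 81 nuclear-encoded genes summed to 1938 CPM in WT (95% interval 1917 to 1960) and 2071 CPM in CCI (2060 to 2083). That is a ratio of 1.07, or 0.10 on the log2 scale (0.08 to 0.11). The 13 mitochondrially encoded genes summed to 4886 CPM in WT (4852 to 4921) and 2377 CPM in CCI (2365 to 2390), a log2 ratio of -1.04 (-1.05 to -1.03). The ratio of the mitochondrial to the nuclear sum was lower in CCI by a log2 value of -1.14 (-1.15 to -1.12). For every mitochondrially encoded UMI there were 0.397 nuclear-encoded UMIs in WT and 0.871 in CCI.

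In neurons the nuclear-encoded sum was 1984 CPM in WT and 2082 in CCI, and the mitochondrially encoded sum 5268 and 2200. Dopaminergic neurons had the lowest nuclear-encoded sum of the 7 classes in WT, at 1618 CPM (1562 to 1675), and stood at 1708 CPM (1666 to 1751) in CCI. The interval of the WT value overlapped that of oligodendrocyte precursors (1667, 1553 to 1787), and in CCI the precursors were lowest at 1665 CPM (1595 to 1737). These sums are over nuclei of all depths. In WT nuclei of 1000 to under 2000 UMIs, dopaminergic neurons stood at 1775 CPM, oligodendrocytes at 1532 and precursors at 1412. The mitochondrially encoded sum of dopaminergic neurons was 5162 CPM in WT and 2548 in CCI, a log2 ratio of -1.02 (-1.06 to -0.98). GABAergic neurons held 2156 and 2258 CPM of nuclear-encoded subunits, and 5409 and 2261 CPM of mitochondrially encoded ones (-1.26, -1.28 to -1.24). Other neurons stood at 1889 and 1970 CPM, and at 5069 and 2082 CPM. All neuronal classes thus showed the mitochondrial sum lower in CCI by log2 values of -1.28 to -1.02, with the nuclear sum within 0.06 to 0.08.

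Among glia the gap was narrower, except in microglia. Over all depths, astrocytes had the highest nuclear-encoded sum, 2233 CPM in WT (2142 to 2327) and 2285 in CCI (2237 to 2334), next to GABAergic neurons at 2156 (2119 to 2194) and 2258 (2238 to 2278), whose intervals overlap it in both libraries. This order did not hold in every bin of like depth. At 1000 to under 2000 UMIs, GABAergic neurons and astrocytes stood at 2178 (2121 to 2237) and 2077 CPM (1899 to 2268) in WT. In CCI they stood at 2282 (1991 to 2604) and 2565 (2457 to 2678) at that depth, and the intervals overlap in both libraries. In CCI nuclei of 2000 to under 4000 UMIs they stood at 2510 (2443 to 2579) and 2251 CPM (2190 to 2312). The mitochondrially encoded sum of astrocytes was the lowest of the 7 classes, 2019 CPM in WT and 1546 in CCI (log2 ratio -0.38, -0.46 to -0.31). Oligodendrocytes, the myelinating glia, held 1745 and 1937 CPM of nuclear-encoded subunits (0.15, 0.11 to 0.20) and 4939 and 3277 CPM of mitochondrially encoded ones (-0.59, -0.62 to -0.56). Oligodendrocyte precursors had 1667 and 1665 CPM, and 3290 and 2763 CPM (-0.25, -0.34 to -0.17). Microglia, the resident immune cells, had 1980 CPM (1802 to 2171) and 2196 CPM (2087 to 2308), and 4528 and 1837 CPM (-1.30, -1.42 to -1.18). These mitochondrial sums rested on few nuclei. The 25 richest of the 247 WT microglia held 55.78% of the mitochondrially encoded UMIs of the class, and the 41 richest of 406 in CCI held 42.03%. Without those nuclei the sums were 2282 CPM in WT and 1166 in CCI, which left CCI lower. In WT, the mitochondrial sums of the 3 neuronal classes, oligodendrocytes and microglia lay between 4528 and 5409 CPM, above the precursors and the astrocytes. In CCI the order was another, with oligodendrocytes highest, then precursors and dopaminergic neurons. Both orders are over nuclei of all depths, which differ between classes. In WT nuclei of 500 to under 1000 UMIs, neurons stood at 7714 CPM, oligodendrocytes at 5146, precursors at 3656, microglia at 3248 and astrocytes at 2081. Taken by marker genes alone, 44 WT and 173 CCI microglia gave a mitochondrial ratio of -0.00, and 50 WT and 29 CCI precursors gave -0.96.

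Because the libraries lay in different clusters, the sums were also set side by side within clusters. In the cluster that led the WT astrocytes the mitochondrially encoded sum was higher in CCI, at 2055 and 7260 CPM (1.82, 1.71 to 1.93), and in the one that led the CCI astrocytes the ratio was -0.41. The clusters that led WT and CCI neurons gave -0.42 and -1.19. The 3 main oligodendrocyte clusters gave -0.38, -0.69 and -0.35.

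**Figure D1:**
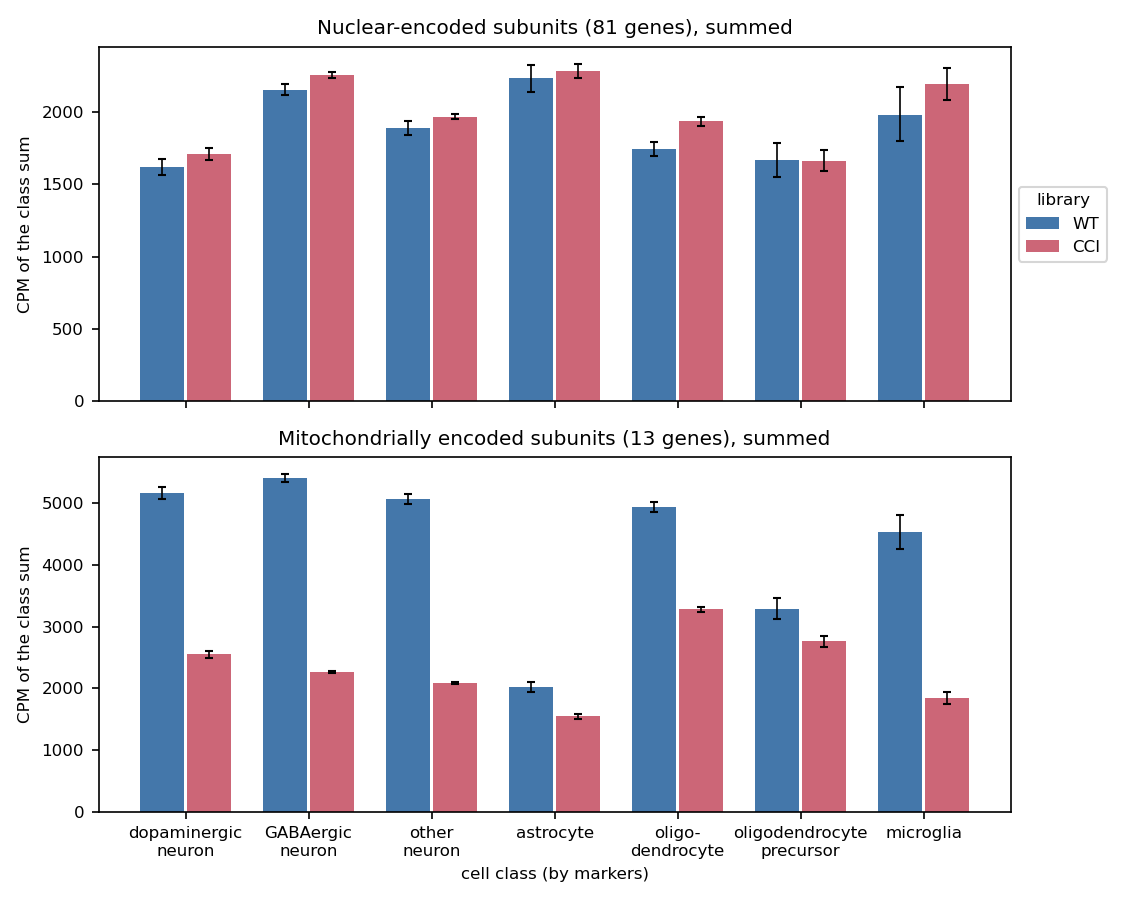
Summed CPM of the 81 nuclear-encoded genes (top) and of the 13 mitochondrially encoded genes (bottom) in 7 cell classes, with WT in blue and CCI in red; bars are class sums of 1 library each and whiskers are exact 95% Poisson intervals. The top bars of a pair are close in every class, while the bottom bars are lower in CCI in every class, for example at 5409 and 2261 CPM in GABAergic neurons and 3290 and 2763 CPM in oligodendrocyte precursors.

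Transcripts of another cell type moved in the same direction. The summed level of 10 myelin genes, which oligodendrocytes make, was lower in CCI in every class compared, with log2 ratios of -1.80 in neurons, -2.02 in dopaminergic neurons, -1.83 in GABAergic neurons, -1.72 in astrocytes, -0.57 in oligodendrocytes, -1.63 in their precursors and -1.17 in microglia. Over all nuclei, 9 of the 10 myelin genes were past 1.5-fold lower. The part of this shift in the mitochondrially encoded difference was not tested.

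Depth was the other quantity that differed between the libraries, so levels were set side by side in nuclei of like depth. In nuclei of 1000 to under 2000 UMIs (3809 WT, 2924 CCI), the nuclear-encoded sum was 1962 CPM in WT and 2264 in CCI (log2 ratio 0.21), and the mitochondrially encoded sum 5354 and 3252 (-0.72). In nuclei of 2000 to under 4000 UMIs the nuclear-encoded sum was 1891 and 2114 CPM (0.16), and the mitochondrially encoded sum 4598 and 2834 (-0.70). In those of at least 4000 UMIs (228 WT, 5707 CCI) the ratios were 0.21 and -0.74. In the shallowest bin of 500 to under 1000 UMIs, which held 6291 WT and 315 CCI nuclei, both sums were higher in CCI, with 2005 and 3077 CPM for the nuclear-encoded (0.62) and 4964 and 5731 CPM for the mitochondrially encoded subunits (0.21). These bins do not hold the same classes in both libraries. At 1000 to under 2000 UMIs, 2795 of the 3809 WT nuclei were neurons, whereas of the 2924 CCI nuclei 112 were neurons and 1881 oligodendrocytes. Of the 5707 CCI nuclei of 4000 UMIs or more, 5313 were neurons. Depth and class mix cannot be told apart in the ratios over all nuclei, so the classes are given below.

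Within neurons both sums were lower in deeper nuclei. WT neurons went from 7714 CPM of mitochondrially encoded subunits at 500 to under 1000 UMIs through 5999 and 4559 to 3651 CPM at 4000 UMIs or more. CCI neurons went from 9545 through 4802 and 2995 to 2112 CPM over the same bins, with 108 nuclei in the shallowest and 112 in the next. The ratio of CCI to WT went from 0.31 in the shallowest bin to -0.32, -0.61 and -0.79. The nuclear-encoded sum of neurons also went down along the bins, from 2354 to 1761 CPM in WT and from 4137 to 2050 CPM in CCI, and was higher in CCI in each bin. The neuronal classes were mixed differently in these bins. At 500 to under 1000 UMIs, 861 of the 1137 WT neurons were GABAergic, whereas 101 of the 108 CCI neurons were other neurons. Depth and neuronal class thus cannot be told apart in the ratios of neurons as a whole. Dopaminergic neurons could be compared from 2000 UMIs upward, where the mitochondrial ratios were -0.52 (370 WT and 29 CCI nuclei) and -0.72 (82 and 338). GABAergic neurons gave -0.71, -0.59 and -0.64 in the 3 bins from 1000 UMIs upward. Other neurons turned direction at low depth. They gave 0.02 (-0.11 to 0.15) at 500 to under 1000 UMIs and 0.17 (0.03 to 0.31) at 1000 to under 2000, with 6058 CPM in WT and 6831 in CCI (752 and 47 nuclei), then -0.61 and -0.76.

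Glia at like depth differed among themselves. Astrocytes of 1000 to under 2000 UMIs had mitochondrial sums of 1827 CPM in WT (202 nuclei) and 1419 in CCI (509 nuclei), a log2 ratio of -0.37 (-0.53 to -0.20), beside -0.38 over all depths. Oligodendrocytes gave -0.22 at 500 to under 1000 and -0.24 at 1000 to under 2000 UMIs. In oligodendrocyte precursors the direction turned, with 2737 CPM in WT (124 nuclei) and 3551 in CCI (65 nuclei) at 1000 to under 2000 UMIs (0.38, 0.17 to 0.58). Microglia gave 0.27 (0.02 to 0.51) at 500 to under 1000 UMIs, with 194 WT and 63 CCI nuclei, and -1.27 (-1.50 to -1.03) at 1000 to under 2000, with 30 and 275. The nuclear-encoded sum was higher in CCI in all of these bins. Mitochondrially encoded UMIs varied between nuclei beyond counting error. With every nucleus thinned to 1000 UMIs, their variance was 3.995 (WT) and 5.128 (CCI) times the mean in precursors. It was 7.208 and 5.174 times the mean in other neurons, and 27.38 and 3.357 in microglia. The intervals of the turned bins, in other neurons as well, are thus narrower than the spread between nuclei.

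**Figure D2:**
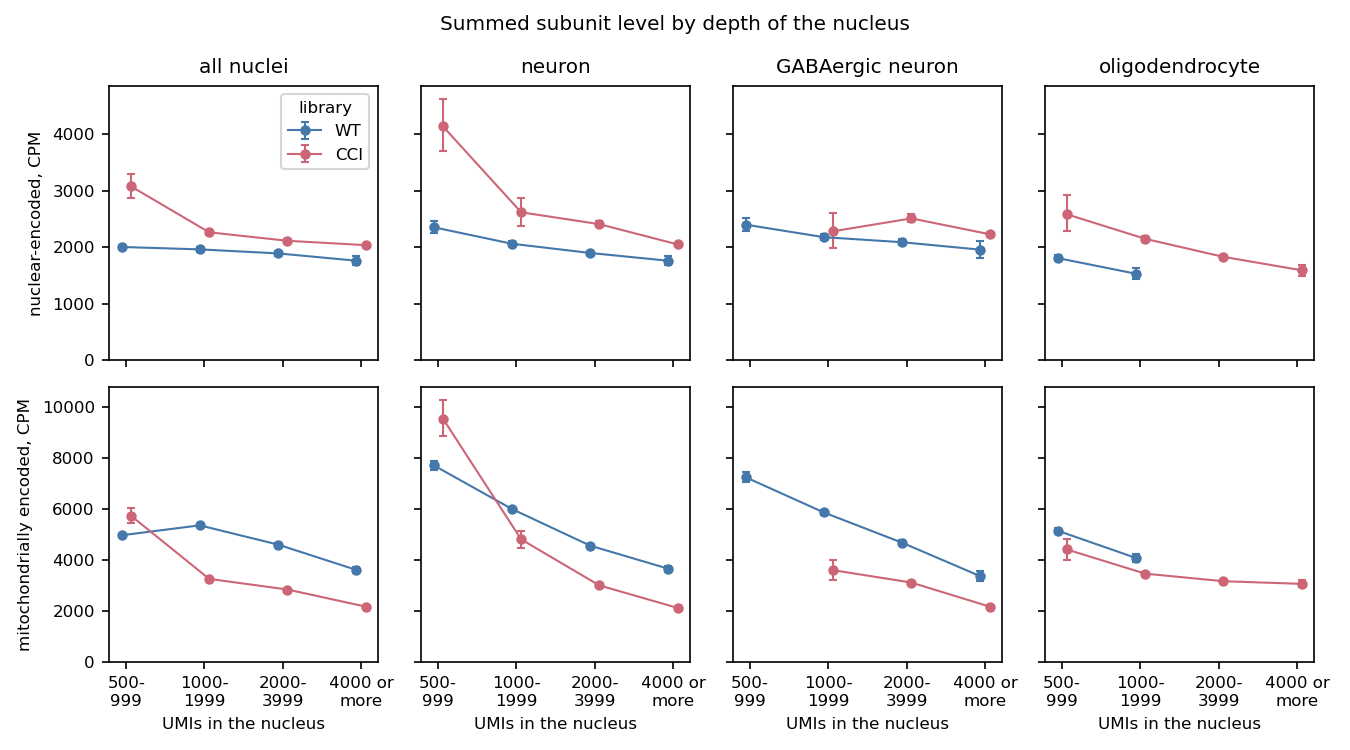
Summed CPM of nuclear-encoded (top row) and mitochondrially encoded subunits (bottom row) against the UMIs of the nucleus in 4 bins, for all nuclei, neurons, GABAergic neurons and oligodendrocytes; points are class sums of a library (WT blue, CCI red), whiskers exact 95% Poisson intervals, and bins with fewer than 20 nuclei are left out. Mitochondrial levels in neurons go down with depth in both libraries (WT 7714 to 3651 CPM), and the CCI line lies below the WT line from 1000 UMIs upward.

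Nuclei varied far more in mitochondrially encoded than in nuclear-encoded UMIs. With every nucleus thinned to 1000 UMIs, a WT nucleus held on average 1.96 nuclear-encoded UMIs and a CCI nucleus 2.14. Their variance was 1.12 and 1.10 times the mean, near the value of 1 that counting alone gives. The same nuclei held on average 5.08 (WT) and 2.72 (CCI) mitochondrially encoded UMIs, with a variance of 9.09 and 8.55 times the mean. The 10% of nuclei richest in mitochondrial messages held 39.5% of these UMIs in WT and 36.95% in CCI, beside 9.28% and 7.67% of all UMIs. Without those nuclei the sums were 3257 and 1623 CPM, so a gap of like size was there without them. The share of thinned nuclei with at least 1 mitochondrially encoded UMI was 83.2% in WT (82.2 to 84.1) and 69.2% in CCI (68.4 to 70.1), against 83.99% and 90.5% before thinning. For nuclear-encoded UMIs the thinned shares were 84.3% and 86.9%, against 84.0% and 98.7%. Thinning left out 6291 WT and 315 CCI nuclei below 1000 UMIs. Neurons were 4819 of the 5898 thinned WT nuclei and 6534 of the 12510 CCI ones, so these values mix classes differently. By class, the shares with a mitochondrial UMI were 84.2% (WT) and 68.2% (CCI) in neurons, 78.4% and 62.9% in astrocytes and 81.6% and 72.4% in oligodendrocytes. The mitochondrial variance was 8.894 and 4.805 times the mean in neurons, 2.631 and 8.643 in astrocytes and 8.964 and 9.545 in oligodendrocytes.

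Whether nuclei with many mitochondrial messages also held more nuclear-encoded ones was described by grouping thinned nuclei by their mitochondrial UMIs. In GABAergic neurons the nuclear-encoded level, in CPM of the other UMIs, was 2025 in WT nuclei with 0 mitochondrial UMIs and 2423 in those with 5 or more. The CCI values were 2136 and 2641. Dopaminergic neurons gave 1466 and 1851 in WT, and 1550 and 2003 in CCI, where the intervals overlap (1326 to 1803 and 1702 to 2342). Other neurons gave 1970 and 1969 in WT, and 1875 and 2268 in CCI. Oligodendrocyte precursors gave 1100 and 1628 in WT (30 and 26 nuclei), and 1778 and 1653 in CCI, with overlapping intervals in both. Astrocytes gave 2354 (2227 to 2486) and 2888 (2540 to 3270) in CCI, with 2352 at 2 to 4 mitochondrial UMIs. WT astrocytes gave 2227 (1808 to 2714) at 0 and 1852 (1551 to 2195) at 2 to 4, and too few held 5 or more. CCI microglia gave 2073 (1795 to 2382) at 0 and 2373 (1860 to 2984) at 5 or more. Oligodendrocytes gave 1475 and 1563 in WT, whose intervals overlap, and 1920 and 2132 in CCI. The richer nuclei were shallower before thinning (6300 and 5127 median UMIs in CCI GABAergic neurons), so depth moves with this grouping. Its part was not tested.

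Each of the 13 mitochondrially encoded genes was lower in CCI over all nuclei by more than 1.5-fold. Of the 17727 genes tested, 6.15% lay past 1.5-fold lower and 9.25% past 1.5-fold higher. The 13 genes are not separate observations, since they are cut from long shared transcripts of the same organelle. Tested here means that a gene's mean level would give at least 10 UMIs in the smaller library. The median log2 ratio of the 13 was -1.09, against 0.06 over all genes tested.

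Complex I takes 7 of its core membrane subunits from the mitochondrial genome. mt-Nd1 (chromosome M, 2751 to 3707, plus strand) stood at 194.5 CPM in WT and 127.1 in CCI, a log2 ratio of -0.61 (-0.67 to -0.55) that was the smallest difference of the 13. mt-Nd2 stood at 285.1 and 152.7 CPM (-0.90), mt-Nd4 at 314.1 and 147.2 (-1.09), and mt-Nd5 at 67.76 and 27.9 (-1.28). The differences were wider for mt-Nd3, with 224.2 and 85.03 CPM (-1.40), and for mt-Nd4l, with 36.54 and 11.17 CPM (-1.71). mt-Nd6 (chromosome M, 13552 to 14070) is the only one of the 13 genes on the minus strand. It had 1391 UMIs in WT and 1257 in CCI although the CCI library held more UMIs, which gave 87.03 and 20.47 CPM and a log2 ratio of -2.09 (-2.20 to -1.98). That was the largest difference of the 13.

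Complex III has 1 mitochondrially encoded subunit, cytochrome b. Its gene mt-Cytb stood at 266.1 CPM in WT and 171.3 in CCI (-0.64, -0.69 to -0.58). The catalytic subunits of complex IV were close to each other, with mt-Co1 at 292.2 and 156.7 CPM (-0.90), mt-Co2 at 563.8 and 306.3 (-0.88) and mt-Co3 at 1020 and 541.7 (-0.91). For ATP synthase, mt-Atp6, which forms part of its proton channel, stood at 1504 and 619.0 CPM (-1.28) and mt-Atp8 at 30.66 and 10.78 CPM (-1.51). By complex, the mitochondrially encoded sums gave -1.08 for complex I, -0.64 for III, -0.90 for IV and -1.29 for ATP synthase.

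The 4 shortest mitochondrial genes, mt-Atp8 (204 bases), mt-Nd4l (297), mt-Nd3 (348) and mt-Nd6 (519), were also the 4 with the lowest ratios over all nuclei, -2.09 to -1.40 against -1.28 to -0.61 for the other 9. The same 4 were lowest in neurons, dopaminergic neurons, GABAergic neurons and oligodendrocytes, and 3 of them were among the 4 lowest in other neurons and astrocytes. In precursors (11 genes tested) and microglia (10 genes), where mt-Atp8 and mt-Nd4l had too few UMIs, 2 and 3 of the 4 shortest genes tested were among the 4 lowest. Over the 13 genes, length and log2 ratio had a Spearman correlation of 0.59 over all nuclei, 0.34 in astrocytes, 0.30 in precursors and 0.39 in microglia, given as a description of genes that share transcripts and libraries. Of the shortest genes, mt-Atp8 and mt-Nd4l end in bases shared with their neighbours, as shown above, and mt-Nd6 faces mt-Nd5.

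By class, 13 of 13 mitochondrially encoded genes were past 1.5-fold lower in CCI in neurons (background 7.44% lower, 7.19% higher) in other neurons (7.16%) and in GABAergic neurons (6.4%), and 12 of 13 in dopaminergic neurons (5.95%). The exception in dopaminergic neurons was mt-Nd1, at 198.1 and 142.7 CPM (-0.47). In microglia all 10 genes that could be tested were past the fold (18.1%). Oligodendrocytes had 7 of 13 past it (5.52%) and astrocytes 4 of 13 (7.13%), with all 13 ratios below 0 in both. In oligodendrocyte precursors 3 of 11 tested genes were past it (8.06%), and mt-Nd1 (123.5 and 134.0 CPM, 0.12) and mt-Cytb (194.7 and 225.6 CPM, 0.21) had ratios above 0 with intervals that reach below it.

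mt-Nd6 was past 1.5-fold lower in every class. It stood at 103.4 and 27.04 CPM in dopaminergic neurons (-1.93), 86.97 and 19.69 in GABAergic neurons (-2.14), 46.24 and 16.94 in astrocytes (-1.45), 89.92 and 32.2 in oligodendrocytes (-1.48), 104.7 and 22.72 in oligodendrocyte precursors (-2.20, -2.92 to -1.52) and 100.3 and 22.96 in microglia (-2.13). In the precursors, whose summed mitochondrial ratio was -0.25, the ratio of mt-Nd6 thus lay beside that of GABAergic neurons. mt-Atp6 ran from -0.43 in the precursors to -1.60 in other neurons and mt-Cytb from 0.21 to -1.21 in microglia.

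**Figure D3:**
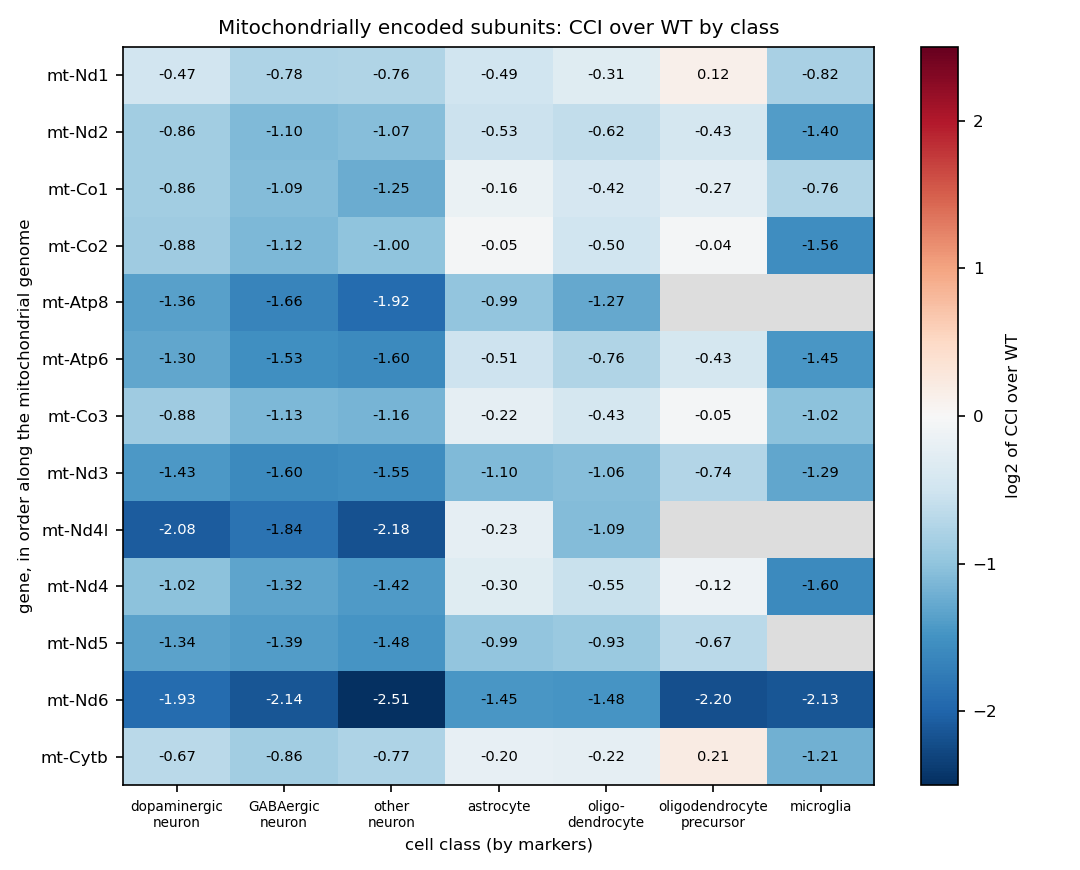
Log2 ratio of CCI over WT (colour and printed value) for the 13 mitochondrially encoded genes, in rows ordered along the genome, in 7 cell classes as columns; grey cells had too few UMIs to be tested. The row of mt-Nd6 is dark in every class (-1.45 to -2.51), while mt-Nd1 and mt-Cytb are pale and lie above 0 in oligodendrocyte precursors (0.12 and 0.21).

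The nuclear-encoded subunits stood close together and close to the rest of the transcriptome. Of the 81, 78 could be tested over all nuclei; Cox7a1, Cox8b and Cox8c had too few UMIs. Their median log2 ratio was 0.10, against 0.06 over all 17727 genes. Cox6b2 and Ndufb9 were past 1.5-fold higher in CCI (2 of 78, background 9.25%) and Sdhd past 1.5-fold lower (1 of 78, background 6.15%). The other 75 lay within 1.5-fold. Ratios were above 0 for 53 and below 0 for 25. The sums by complex were 0.07 for complex I (36 genes), 0.17 for complex II (4), 0.15 for complex III (8), 0.05 for complex IV (16) and 0.12 for ATP synthase (17). Within each complex built from both genomes, as grouped by gene name, the mitochondrially encoded sum thus lay below 0. The nuclear-encoded sum lay slightly above 0, with an interval that starts at 0.0 for complex IV (0.0 to 0.1). Ndufa4, with 61.88 CPM in WT and 51.76 in CCI, is counted in complex I by its name. The nuclear-encoded complex IV sum without it was 286.7 and 296.9 CPM, so its sign depends on where Ndufa4 is placed.

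**Figure D4:**
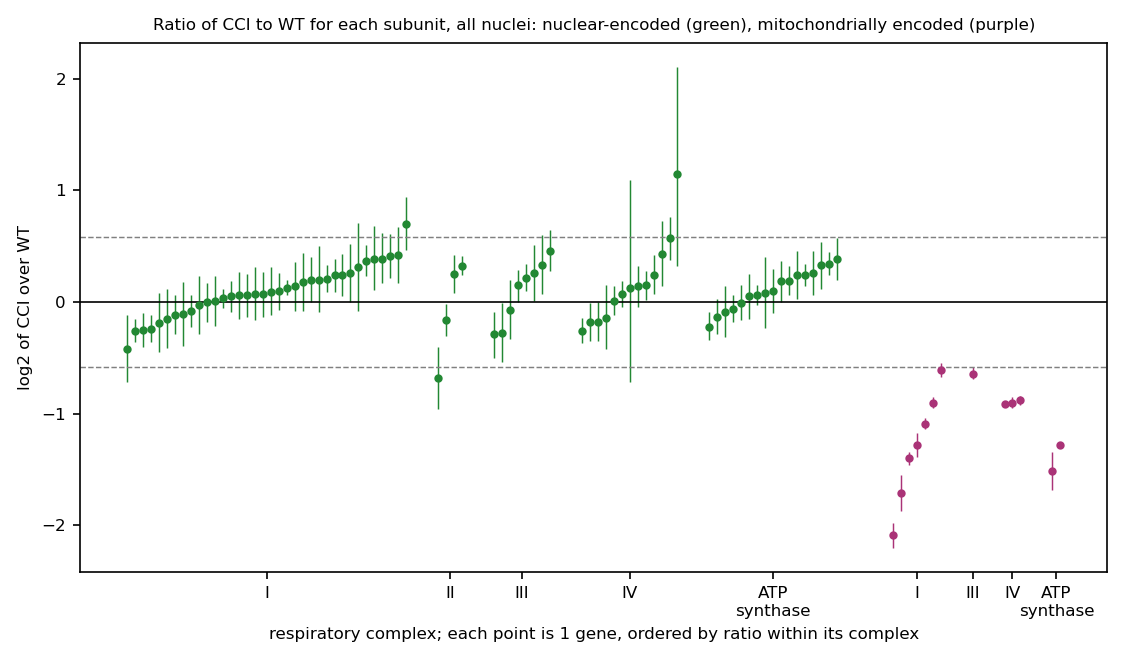
Log2 ratio of CCI over WT for each subunit tested over all nuclei, grouped by complex and genome (78 nuclear-encoded genes in green, 13 mitochondrially encoded genes in purple); points are single genes, whiskers exact 95% intervals, and dashed lines mark 1.5-fold. The purple points all lie below the lower dashed line (-2.09 to -0.61), and the green points scatter around 0 in each complex.

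Complex I has the most nuclear-encoded members. Ndufb9 (chromosome 15, 58933756 to 58939488), an accessory subunit of the membrane arm, had 178 UMIs in WT and 1113 in CCI, or 11.14 and 18.13 CPM (0.70, 0.47 to 0.94). Its ratio was above 0 in each of the 5 classes in which it could be tested. It was widest in oligodendrocytes, with 8.357 and 20.43 CPM (1.29, 0.68 to 1.96), and narrowest in other neurons (0.48). Its exons overlap the gene model Gm49356 on the same strand, so its UMIs are uncertain. At the other end stood Ndufa1 with 7.821 and 5.83 CPM (-0.42), Ndufa4 with 61.88 and 51.76 (-0.26), Ndufs5 with 30.72 and 25.83 (-0.25) and Ndufc2 with 45.86 and 38.78 (-0.24). Ndufa4 is named for complex I and was later placed in complex IV. The core subunits Ndufs1, which carries iron-sulfur clusters, and Ndufv1, which binds NADH, stood at 90.6 and 92.83 CPM (0.04, -0.05 to 0.12) and at 15.2 and 15.81 CPM (0.06, -0.15 to 0.27). In nuclei of 1000 to under 2000 UMIs the ratios of Ndufa4 and Ndufs5 were no longer below 0 (0.05 and 0.00). As given above, that bin holds mostly neurons in WT and mostly oligodendrocytes in CCI, which holds for each value over all nuclei at this depth.

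Complex II oxidises succinate and has no mitochondrially encoded partner. Its 4 genes did not move together. Sdha, the flavoprotein that binds succinate, stood at 85.09 CPM in WT and 106.5 in CCI (0.32, 0.24 to 0.41), and Sdhb, the iron-sulfur subunit, at 20.96 and 24.92 (0.25, 0.08 to 0.42). The membrane anchors lay below 0, with Sdhc at 33.04 and 29.54 CPM (-0.16, -0.30 to -0.02) and Sdhd (chromosome 9, 50596357 to 50603812) at 9.573 and 5.961 CPM (-0.68, -0.96 to -0.40). Sdhd rested on 153 and 366 UMIs. It stood at 10.06 and 5.507 CPM in GABAergic neurons (-0.87, -1.33 to -0.39) and had ratios of -0.87 to -0.37 in the 4 classes in which it could be tested. In dopaminergic neurons Sdha was at 61.11 and 97.41 CPM (0.67, 0.37 to 0.98). Over all nuclei of 1000 to under 2000 UMIs, with their different class mix, Sdhb and Sdhc stood on the other side of 0 (-0.31 and 0.37), and with GABAergic nuclei taken by their markers alone so did Sdhd in this class (0.53). Sdha in GABAergic neurons turned at that depth as well, from 0.31 to -0.55.

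Complex III passes electrons from ubiquinol to cytochrome c. Its core subunit Uqcrc1 stood at 17.64 CPM in WT and 24.3 in CCI (0.46, 0.28 to 0.65), with ratios above 0 in all 5 classes tested (0.12 to 0.64). The Rieske iron-sulfur protein Uqcrfs1 stood at 9.51 and 9.088 CPM (-0.07, -0.33 to 0.20). Uqcr10, a small subunit, was past 1.5-fold in GABAergic neurons, with 7.674 and 12.71 CPM (0.73, 0.27 to 1.22), where Uqcrb was at 20.63 and 14.69 (-0.49, -0.80 to -0.18). Exons of Uqcrb overlap the gene model Gm10767 on the other strand.

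Complex IV reduces oxygen to water, and several of its nuclear-encoded subunits exist as tissue isoforms. Cox8a (chromosome 19, 7215153 to 7217616), the general form of subunit 8, had 275 UMIs in WT and 1566 in CCI, or 17.21 and 25.5 CPM (0.57, 0.38 to 0.76). It was past 1.5-fold in oligodendrocytes at 12.7 and 27.93 CPM (1.14, 0.63 to 1.67), in astrocytes at 15.74 and 30.17 (0.94, 0.18 to 1.79) and in dopaminergic neurons at 13.75 and 22.63 (0.72, 0.08 to 1.4). In GABAergic neurons it stood at 21.32 and 24.69 CPM (0.21, -0.07 to 0.50). The WT levels of Cox8a thus spread from 12.7 to 21.32 CPM over these classes, and the CCI levels from 22.63 to 30.17. Cox6c stood at 48.74 and 40.8 CPM over all nuclei (-0.26), with exons that overlap Vps13b on the other strand, and Cox5a at 36.16 and 40.03 (0.15). At 1000 to under 2000 UMIs Cox6c and Cox5a turned direction (0.22 and -0.10).

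Several subunits of complex IV have a general form and a form known from other tissues. Cox6a1 stood at 21.08 and 24.92 CPM (0.24), while Cox6a2, known from heart and skeletal muscle, had 14 and 59 UMIs (0.876 and 0.961 CPM). Cox7a2 stood at 24.03 and 21.17 CPM (-0.18), with 6 and 23 UMIs for the muscle form Cox7a1. Cox7a2l, a factor of supercomplexes, stood at 18.83 and 20.72 CPM (0.14). Cox8b had 1 and 9 UMIs. Cox8c had 0 UMIs in both libraries, which allows up to 0.188 CPM in WT and 0.0489 CPM in CCI at 3 counts. Cox6b1 stood at 21.08 and 18.63 CPM (-0.18). Cox6b2, known from testis, had 13 and 111 UMIs, or 0.813 and 1.81 CPM (1.15, 0.32 to 2.11), and 39 of the 111 CCI UMIs came from astrocytes (3.935 and 10.32 CPM there). Cox7b stood at 45.55 and 47.93 CPM (0.07), and its relative Cox7b2 at 7.195 and 9.674 (0.43, 0.14 to 0.73). Cox7b2 was detected in neurons and astrocytes in both libraries, with 15.74 and 16.67 CPM in astrocytes, 11.7 and 16.14 in other neurons, 5.798 and 5.002 in GABAergic neurons and 3.343 and 3.75 in oligodendrocytes. Its astrocyte and oligodendrocyte intervals do not overlap in either library.

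ATP synthase was represented by 17 nuclear-encoded genes. The catalytic beta subunit Atp5b stood at 57.19 and 72.57 CPM (0.34, 0.24 to 0.45) and the alpha subunit Atp5a1 at 61.07 and 72.29 (0.24, 0.14 to 0.34). Atp5b was past 1.5-fold in astrocytes, at 58.04 and 87.33 CPM (0.59, 0.19 to 1.01). The ring of subunit c is encoded by 3 genes that make the same mature protein. Atp5g1 stood at 27.09 and 26.97 CPM (-0.01, -0.16 to 0.15), Atp5g2 at 18.96 and 21.56 (0.19, 0.00 to 0.37) and Atp5g3 at 42.23 and 36.32 (-0.22, -0.34 to -0.09). Atp5g3 had ratios below 0 in all 7 classes, from -0.95 in microglia (21 and 33 UMIs) to -0.06 in oligodendrocyte precursors. Its interval lay below 0 in dopaminergic neurons, at 35.14 and 24.28 CPM (-0.53, -1.0 to -0.06), and in microglia (-1.78 to -0.09). Over all nuclei its direction turned at 1000 to under 2000 UMIs (0.27).

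By class, the nuclear-encoded members past 1.5-fold were few. Their shares lay on both sides of the background of all genes tested in that class, which is given in brackets. The difference from the background was not tested. Neurons had 3 higher and 2 lower of 76 (7.19% and 7.44% of all genes), and GABAergic neurons 4 and 2 of 76 (7.22% and 6.4%). Other neurons had 4 higher and 2 lower of 76 (8.03% and 7.16%). Dopaminergic neurons had 8 higher and 1 lower of 75 (8.63% and 5.95%). The 8 were Ndufa8, Ndufb9, Ndufs6, Sdha, Cox8a, Atp5d, Atp5j and Atp5j2, and 3 of these, Ndufb9, Sdha and Cox8a, had intervals above 0. Ndufs4, a complex I subunit whose loss causes a mitochondrial encephalopathy, stood at 84.03 and 111.5 CPM there (0.41, 0.14 to 0.68). Their 1 lower member was Ndufb2, at 36.16 and 24.01 CPM (-0.59, -1.06 to -0.12), whose exons overlap Braf on the other strand. Ndufa4 stood at 51.95 and 35.6 CPM (-0.55, -0.93 to -0.16) in these neurons. The median ratio of the 75 was -0.01, against 0.03 for all genes.

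Astrocytes had 5 higher and 3 lower of 68 (10.0% and 7.13%). Ndufb10, a complex I subunit, stood at 27.55 and 15.08 CPM there (-0.87, -1.55 to -0.16), Ndufc2 at 52.14 and 34.93 (-0.58) and Cox6c at 60.01 and 41.55 (-0.53). Ndufb10 and Ndufc2 turned direction at 1000 to under 2000 UMIs (0.24 and 0.35) and with doublets kept (1.07 and 0.29). Oligodendrocytes had 5 higher and 0 lower of 76 (8.92% and 5.52%), with Ndufa10 at 19.72 and 31.94 CPM (0.70, 0.28 to 1.13) beside Ndufb9 and Cox8a. Oligodendrocyte precursors had 3 higher and 4 lower of 27 (8.23% and 8.06%), and microglia 1 and 1 of 12 (20.5% and 18.1%). In the precursors no nuclear-encoded member had an interval that left 0 out, and in microglia Atp5g3 was the only one. In these 2 classes a change of 1.5-fold in most single subunits was not detectable at this depth.

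**Figure D5:**
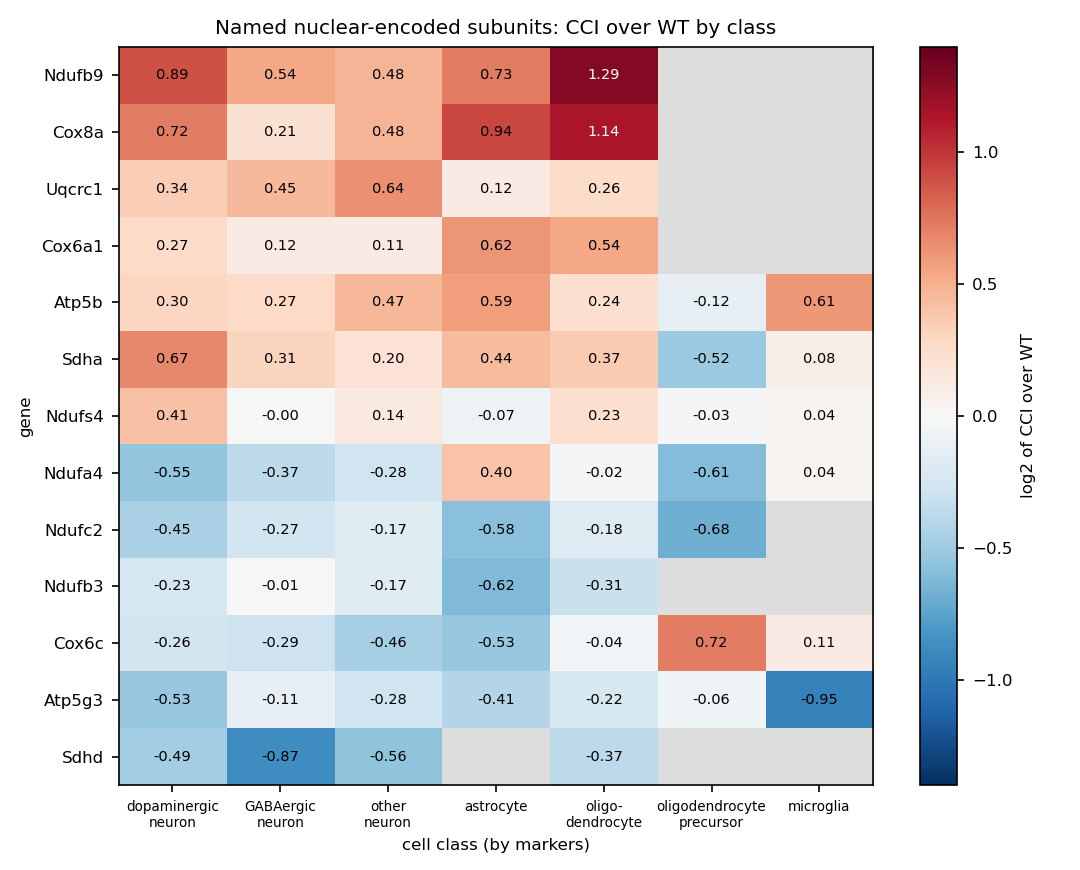
Log2 ratio of CCI over WT (colour and printed value) for 13 nuclear-encoded genes described in the text, in 7 cell classes; grey cells had too few UMIs to be tested. Ndufb9 and Cox8a are above 0 in each of the 5 classes in which they were tested and reach 1.29 and 1.14 in oligodendrocytes, while Sdhd and Atp5g3 are below 0 in each class in which they were tested.

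The level of a single nuclear-encoded subunit, over nuclei of all depths, differed between classes in a way that both libraries shared in part. Classes also differ in depth, with medians of 2126.5 UMIs (WT) and 9147.5 (CCI) in dopaminergic neurons, beside 975 and 3461 over all nuclei. Depth and class cannot be told apart in these counts. Over the 7 classes, oligodendrocyte precursors had the lowest level of 31 of the 78 genes in WT and 34 in CCI, and dopaminergic neurons that of 17 and 28. GABAergic neurons were highest for 18 and 20, astrocytes for 22 and 19, and microglia for 20 and 20. The smallest classes stood at both ends, with microglia lowest for 13 and 7 genes and precursors highest for 10 and 3. These counts rest on few UMIs, 454 nuclear-encoded ones in WT microglia and 796 in WT precursors. GABAergic neurons were lowest for 0 genes in both. Across the 14 points of class and library, the nuclear and mitochondrial sums had a Spearman correlation of -0.56 (-0.21 over the 7 WT points, -0.79 over the 7 CCI points). These points share library and depth, and the values are descriptions. The highest positive correlations of a nuclear-encoded gene with the mitochondrial sum over the 14 points were those of Sdhd (0.57), Ndufc2 (0.42) and Uqcrb (0.40). The most negative was that of Cox6b2 (-0.74). The mitochondrial sum was lower in CCI in every class, so the difference between the libraries enters these values. Sdhd and Ndufc2 were also among the 6 lowest ratios over all nuclei. Values of single genes within a library are not given.

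Gene span was compared because nuclei hold unspliced transcripts of long genes. The nuclear-encoded members had a median span of 7206 bases, against 27310 for 14312 other protein-coding genes tested. Members up to 5000 bases long had a median log2 ratio of 0.10 (25 genes), against 0.14 for other genes of that span, and those of 5000 to 15000 bases 0.07 (38 genes), against 0.12. Those of 15000 to 50000 bases stood at 0.19 (13 genes), against 0.07.

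Other genes of mitochondrial energy metabolism were set beside the nuclear-encoded subunits. The 4 tested genes of a list of subunits outside the naming rule and cytochrome c, among them Cox4i1 of complex IV (45.61 and 53.04 CPM, 0.22), had a median log2 ratio of -0.01. The counts past 1.5-fold below stand beside 9.25% higher and 6.15% lower among all genes tested, and the medians beside 0.06. Over all nuclei, 47 tested assembly factors had a median log2 ratio of 0.13, with Cox11 (14.7 and 23.63 CPM, 0.68), which delivers copper to complex IV, and Coa7 (0.63) past 1.5-fold higher and 0 lower. The 23 genes that replicate, transcribe and translate the mitochondrial genome had a median of 0.10. Among them, the mitochondrial transcription factor Tfam stood at 11.14 and 12.52 CPM (0.17, -0.07 to 0.41), the mitochondrial RNA polymerase Polrmt at 9.51 and 10.03 (0.08, -0.18 to 0.34), and Mtif3, a translation initiation factor, was past 1.5-fold higher (0.80). The 78 mitochondrial ribosomal proteins had a median of 0.18, with 10 past 1.5-fold higher and 0 lower, and the 19 genes of the citrate cycle and pyruvate dehydrogenase a median of -0.02 with 0 past it. Glycolysis had a median of 0.21 over 17 genes, with Gapdh at 20.15 and 34.71 CPM (0.78, 0.61 to 0.96). The cytosolic ribosomal proteins, other short and highly expressed genes, had a median of 0.31 over 49. Of 13 regulators of mitochondrial biogenesis (median -0.03), Ppargc1a, a coactivator of respiratory genes, stood at 90.53 and 86.53 CPM (-0.07, -0.15 to 0.02), Esrra at 22.71 and 29.22 (0.36), Gabpa at 23.53 and 17.43 (-0.43, -0.60 to -0.26) and Esrrb at 7.258 and 4.56 (-0.67).

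Many nuclear-encoded respiratory genes are known to carry promoter sites of NRF1, of ETS factors such as GABPA and of YY1. Exact matches were searched on both strands in the RefSeq windows of build GRCm38.p6, from 250 bases before to 50 after a gene's start, which were found for 68 of the 81 members (73 windows). The palindromic 10-base NRF1 site was in 5 windows (6.85%, against 1.31% of 21190 windows of other genes), the ETS letters CCGGAAG in 17 (23.3%, against 11.5%) and the 10-base YY1 site in 5 (6.85%, against 1.19%). At least 1 of the 3 was in 24 windows (32.9%, against 13.5%). A match is a run of letters and not a shown binding site. Windows are printed for the complex IV gene Cox8a, with 2 ETS matches, for Sdhd, which had the lowest ratio of the nuclear-encoded genes, with 1 ETS match, and for Cox6a1, which holds an NRF1 and an ETS match. No window was found for Ndufb9, so it was not searched. Capitals mark the matches, read 5' to 3' on the gene's strand, where CTTCCGG is the ETS run on the opposite strand.
Cox8a, chr19:7217567-7217866, minus strand: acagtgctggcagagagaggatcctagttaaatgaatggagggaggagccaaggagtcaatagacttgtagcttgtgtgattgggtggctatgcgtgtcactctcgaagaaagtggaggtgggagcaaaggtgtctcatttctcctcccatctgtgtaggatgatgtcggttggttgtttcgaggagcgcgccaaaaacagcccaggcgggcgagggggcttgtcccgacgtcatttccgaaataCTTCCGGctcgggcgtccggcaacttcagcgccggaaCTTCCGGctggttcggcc
Sdhd, chr9:50603800-50604099, minus strand: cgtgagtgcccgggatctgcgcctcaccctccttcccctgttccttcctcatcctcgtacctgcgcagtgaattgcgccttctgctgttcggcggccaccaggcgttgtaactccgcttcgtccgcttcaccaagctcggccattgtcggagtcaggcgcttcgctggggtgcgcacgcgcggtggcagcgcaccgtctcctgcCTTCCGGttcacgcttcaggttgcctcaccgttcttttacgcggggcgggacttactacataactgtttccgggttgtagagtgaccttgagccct
Cox6a1, chr5:115348909-115349208, minus strand: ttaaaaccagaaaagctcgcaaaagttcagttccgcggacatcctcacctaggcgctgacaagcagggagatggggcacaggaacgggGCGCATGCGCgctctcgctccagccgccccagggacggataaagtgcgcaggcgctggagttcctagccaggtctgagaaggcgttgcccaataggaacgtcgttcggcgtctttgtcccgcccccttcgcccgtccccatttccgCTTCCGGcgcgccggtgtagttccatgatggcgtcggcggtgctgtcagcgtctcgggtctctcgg
The relation of these matches to the ratios was not tested.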

How the data were processed

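The authors deposited 1 matrix of UMI counts per library, with whole-number counts per gene and barcode. The counts were made with Cell Ranger 7.1.0, per the file headers, and mm10 and Seurat are named in the submitters' processing notes. The annotation release, the use of intronic reads and of the strand are not given in the sources used here.

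Barcodes under 200 genes, under 500 UMIs or over 20% mitochondrial UMIs were left out, which removed 690 WT and 0 CCI nuclei for UMIs, and doublets marked by Scrublet (expected rate 10%) were removed (1235 WT, 911 CCI). Both libraries were clustered together with Scanpy 1.11.5 and leidenalg 0.10.2 on 2000 variable genes, scaled within each library, without the members and the mitochondrial genes (30 components, 20 neighbours, resolution 1.0). Clusters were named from marker lists, and classes with at least 50 nuclei in each library were compared. UMIs were summed per class and library and divided by the class total. Ratios carry exact conditional 95% intervals and levels exact Poisson intervals, shares exact Clopper-Pearson intervals, all for counting error only, since UMIs of 1 library per condition hold no replicate error. The calculation was tested on simulated data. TMM factors came from edgeR 4.0.16 in R 4.3.3. Coordinates came from GENCODE vM21, which held 32158 of the 32285 gene identifiers.

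The genes named were the 13 mitochondrially encoded genes, the 6 highest and 6 lowest nuclear-encoded members over all nuclei and the 3 highest and 3 lowest per class by the interval bound nearest 0, the tissue isoforms and their partners, and the Sdh genes. Genes beyond these were named after their values were seen. The members, lists and markers were chosen with earlier results of these data known. The alternatives were at least 500 genes, at most 5% mitochondrial UMIs, doublets kept, nuclei of 1000 to under 2000 UMIs, resolution 2.0, a marker gate of 2 UMIs, equal weight per nucleus, TMM scaling and a filter of 40 expected UMIs.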

Additional observations from a re-analysis of the deposited data

Results flagged for a closer look

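In 2 clusters the mitochondrially encoded sum was higher in CCI, against the direction of every class compared. In the cluster that led the WT astrocytes (1132 WT and 101 CCI nuclei) it stood at 2055 and 7260 CPM, a log2 ratio of 1.82 (1.71 to 1.93), with a nuclear-encoded ratio of 0.14. In the fibroblast-like cluster (28 WT and 55 CCI nuclei) it stood at 5931 and 9023 CPM, a log2 ratio of 0.61 (0.35 to 0.87). The difference from the other clusters was not tested.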

How the results depend on the processing

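Values are log2 ratios of CCI over WT. Over 62 alternative values for all nuclei, neurons as a whole and the classes other than other neurons, the mitochondrially encoded sum was below 0 in 60 and above 0 in 1 (-1.53 to 0.38), and the nuclear-encoded sum above 0 in 56 and below 0 in 4 (-0.21 to 0.49). At 1000 to under 2000 UMIs the nuclear-encoded sum was 0.21 over all nuclei, 0.34 in neurons, 0.30 in astrocytes, 0.49 in oligodendrocytes, 0.41 in precursors and 0.47 in microglia. The mitochondrially encoded sum was -0.72, -0.32 in neurons, -0.71 in GABAergic neurons, -0.24 in oligodendrocytes and 0.38 in precursors, where it reversed. Other neurons, not among these values, also reversed at this depth (0.17). With equal weight per nucleus, all nuclei gave 0.13 and -0.86, and the mitochondrial sum was -1.22 in neurons, -1.08 in dopaminergic neurons, -0.50 in astrocytes and -0.85 in microglia. TMM scaling gave 0.06 and -1.08 over all nuclei. With doublets kept, the nuclear sum was 0.03 in GABAergic neurons and 0.18 in astrocytes, and the mitochondrial sum -1.24 in neurons, -1.49 in GABAergic neurons and -0.46 in precursors. At most 5% mitochondrial UMIs gave -1.24 in neurons, -1.22 in GABAergic neurons, -0.59 in astrocytes and -1.13 in microglia. At least 500 genes gave a nuclear sum of 0.20 in oligodendrocytes, and mitochondrial sums of -0.31 in astrocytes, -0.45 in oligodendrocytes, -0.13 in precursors and -1.53 in microglia. Resolution 2.0 gave -1.33 in GABAergic neurons. The marker gate gave mitochondrial sums of -1.23 in neurons, -1.08 in dopaminergic neurons, -1.48 in GABAergic neurons, -0.54 in astrocytes, -0.55 in oligodendrocytes, -0.96 in precursors and -0.00 in microglia, and nuclear sums of -0.21 in precursors and -0.07 in microglia. Of nuclear-encoded members over all nuclei, 1 was past 1.5-fold higher with a filter of 40 expected UMIs. With the main filter it was 2 of 78, beside 9.25% of all genes tested. At 1000 to under 2000 UMIs, 15 were higher and 0 lower, beside 24.3% of all genes tested past 1.5-fold higher.

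Single genes reversed mainly at 1000 to under 2000 UMIs. Over all nuclei, where the bin holds 2795 neurons of 3809 WT nuclei and 112 of 2924 CCI nuclei, these were Ndufa4 (0.05), Cox6c (0.22), Ndufs5 (0.00), Cox7a2 (0.07), Atp5g3 (0.27), Sdhb (-0.31), Sdhc (0.37) and Cox5a (-0.10). In neurons they were Ndufa1 (0.65), Ndufa4 (0.65), mt-Nd1 (0.02) and mt-Cytb (0.05), and in GABAergic neurons Sdha (-0.55), Ndufa4 (0.46) and mt-Nd1 (0.01). In astrocytes they were Ndufb10 (0.24) and Ndufc2 (0.35), in oligodendrocytes mt-Nd1 (0.23) and mt-Cytb (0.26), and in precursors mt-Atp6 (0.00). With doublets kept, Sdha (-0.04), Ndufb10 (1.07), Ndufc2 (0.29) and mt-Nd1 (0.28) reversed in astrocytes. The marker gate reversed Sdhd in GABAergic neurons (0.53) and mt-Nd1 (0.64) and mt-Atp6 (0.79) in microglia. The cause was not tested. Dopaminergic neurons gave no value at 1000 to under 2000 UMIs (3 CCI nuclei), nor microglia at resolution 2.0. No paired analysis was possible because each condition has 1 library. Depth limits the smaller classes: 12 nuclear-encoded genes could be tested in microglia and 27 in precursors.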

Other observations

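Vascular classes had too few nuclei to be compared. The 7 WT and 63 CCI endothelial-like nuclei held 9514 CPM (7225 to 12300) and 20920 CPM (20170 to 21690) of mitochondrially encoded subunits, and 1476 and 3330 CPM of nuclear-encoded ones. The 12 WT and 44 CCI mural-like nuclei held 4882 and 2725 CPM, and 2273 and 2189 CPM. The unnamed nuclei, 285 in WT and 44 in CCI, held 2970 and 7228 CPM of mitochondrially encoded subunits.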
